A study of Mus musculus with 2 samples.

Results

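The circadian clock genes described here are Arntl (also called Bmal1), Clock, Per1, Per2, Per3, Nr1d1, Nr1d2, Dbp, Tef and Hlf. They were taken by symbol from the platform annotation, and all 10 were measured, by 19 probes, among 19532 genes and 32664 probes with 1 gene symbol. The study hybridised 2 Agilent two-colour arrays. On each array, total RNA of untreated mouse lung that was never cultured (Cy3) was set against RNA of mouse embryonic fibroblasts (MEF, Cy5), which are cultures derived from embryos, kept here in DMEM with 10% fetal bovine serum and 0.1 mM non-essential amino acids. Nothing in the labels says whether the lung samples, numbered 1 and 2, came from separate animals, or gives their strain, their age, or whether 1 MEF preparation served both arrays. The p-values below therefore measure only the spread between these samples, which may be technical. The labels also give no time of day for the lung samples and no time since the last medium change for the MEF, so the phase of the clock in either is not known here.

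The mammalian clock is a transcriptional feedback loop that runs in most cells. The proteins CLOCK and BMAL1 (the product of Arntl) pair on E-box DNA elements and switch on the Per and Cry genes, whose products return to block the pair. The pair also switches on Nr1d1 and Nr1d2, which encode the repressors REV-ERB alpha and beta and act on Arntl through a response element (RRE). It also drives Dbp, which with its relatives Tef and Hlf encodes proline and acidic amino acid-rich basic leucine zipper (PAR bZIP) activators of D-box elements. Cultured fibroblasts carry such a clock, in which cells drift out of step until serum or a glucocorticoid resets them, and in lung it runs in airway epithelium, among other cell types.

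Each value is a log2 ratio of lung over MEF for 1 array, as the mean of a gene's probes, so a value above 0 means higher in lung. The base of the logarithm and the direction of the ratio are not stated with the table. Base 2 was inferred from the largest deposited value, 10.1 in size, which would be beyond a scanner's range as a base-10 logarithm. The direction is likely and not certain. It rests on the series' design text, which speaks of lung compared with MEF, and on 11 measured genes of lung epithelium (surfactant proteins, club cell proteins and others), for which all 22 values were above 0. Were it the other way, every higher and lower below would be exchanged.

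The lung samples carried transcripts of several cell types. All 5 endothelial, 5 leukocyte, 2 erythroid and 2 ciliated cell markers were higher in lung, all 7 markers of cultured fibroblasts were lower, and the 2 measured proliferation genes, Mki67 and Top2a, had mean log2 ratios of -2.96 and -2.84. Smooth muscle markers were divided, with Myh11 higher at 1.80 and Acta2 (-2.20) and Tagln (-2.89) lower. The 5 probes of Acta2 ran from -4.49 to 1.36, so its direction depends on the probe. In such bulk samples, fewer cells of a type and less RNA per cell cannot be told apart, and the part of these cell types in the ratios of the clock genes was not tested. The median over all genes was -0.22 on lung replicate 1 and -0.14 on lung replicate 2. Centring each array on it raises every ratio by these sizes, and centring on the 1047 olfactory and vomeronasal receptor genes, which neither lung nor fibroblasts normally transcribe, raises them by 0.41 and 0.43. The central 95% of those receptor genes, called the receptor range, spanned -1.39 to 1.22 for lung replicate 1, and -1.45 to 1.23 for lung replicate 2.

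Most of the clock genes were higher in lung than in MEF, and Arntl was lower. Each gene was tested against a ratio of 1 with limma, with Benjamini-Hochberg adjustment over all genes and a threshold of 0.05. By this test Tef, Hlf, Per2, Dbp, Nr1d2, Per1 and Clock were higher in lung, Arntl was lower, and Per3 and Nr1d1 did not pass. The 7 of 10 higher stand beside 32.6% of all genes called higher, and the 1 of 10 lower beside 43.6% called lower. In either direction 8 of 10 were called, against 76.2% of all genes, which is near the background. By size, 5 of 10 were at least 2-fold higher on both arrays against 17.1% of all genes, and 1 of 10 at least 2-fold lower against 15.4%, together 6 of 10 against 32.5%. Above the receptor range on both arrays lay Tef, Hlf, Per2 and Dbp (14.6% of all genes), and below it lay Arntl (8.78%). The median of the clock genes' mean log2 ratios was 1.03, against -0.21 over all genes. With either centring, 9 were called higher and 1 lower, and none of the 10 means changed sign. Of all 19532 genes, 7496 were then higher and 7128 lower with median centring, and 9119 and 5225 with receptor centring. The 9 include Nr1d1, whose probes were of opposite sign.

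**Figure D1:**
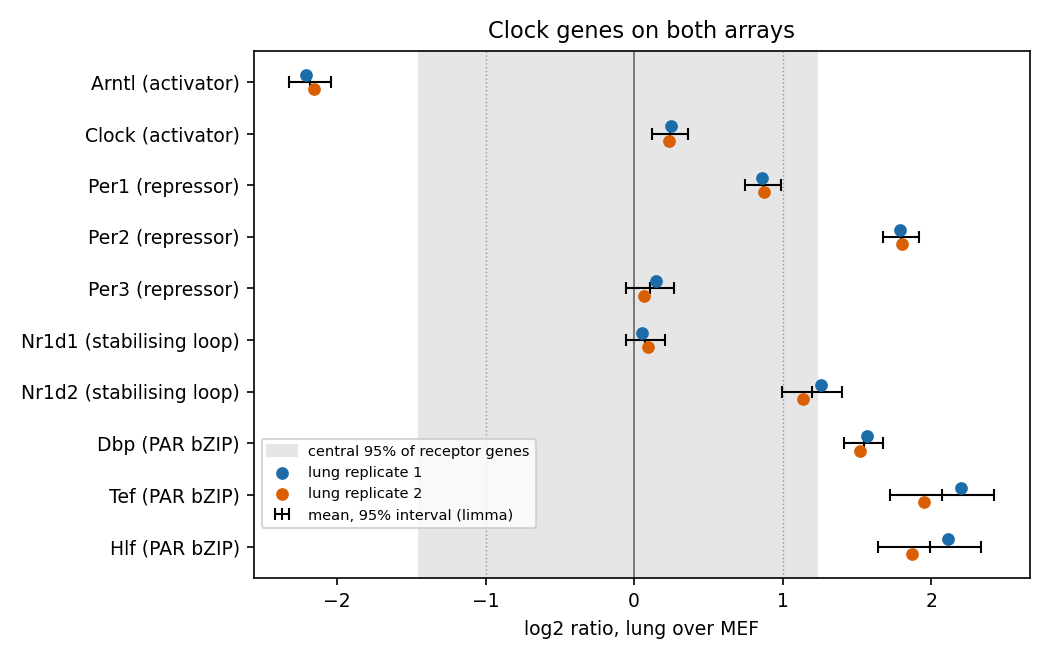
Log2 ratio of lung over MEF for each clock gene (horizontal axis) on lung replicate 1 (blue) and lung replicate 2 (orange), with the mean and its 95% interval from limma in black, the receptor range in grey and 2-fold marked by dotted lines. Arntl sits alone on the left near -2.18, while Tef, Hlf, Per2 and Dbp lie right of the grey band on both arrays.

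Both arrays gave close values for these genes. All 10 had the same sign on both, and the difference between arrays ran from 0.0085 for Per1 to 0.25 for Tef, with a median of 0.047 against 0.081 over all genes. From highest to lowest mean log2 ratio, the order was Tef, Hlf, Per2, Dbp, Nr1d2, Per1, Clock, Per3, Nr1d1 and Arntl. The values of Tef and Hlf overlapped between arrays, although Tef stood slightly above Hlf on each array. Those of Per3 and Nr1d1 overlapped too and changed places between arrays, so that pair has no order. The other neighbours did not overlap between arrays, but the order holds for means over probes only. Probes of Per2 averaged -0.10 and 3.70, and those of Tef 0.23 to 4.43, so single probes would order these genes otherwise. This order concerns ratios and says nothing about which transcript was more abundant. Among all genes ranked by mean log2 ratio, Tef stood above 90.8% of genes, Hlf above 90.4%, Per2 above 89.1% and Arntl above 4.24%.

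**Figure D2:**
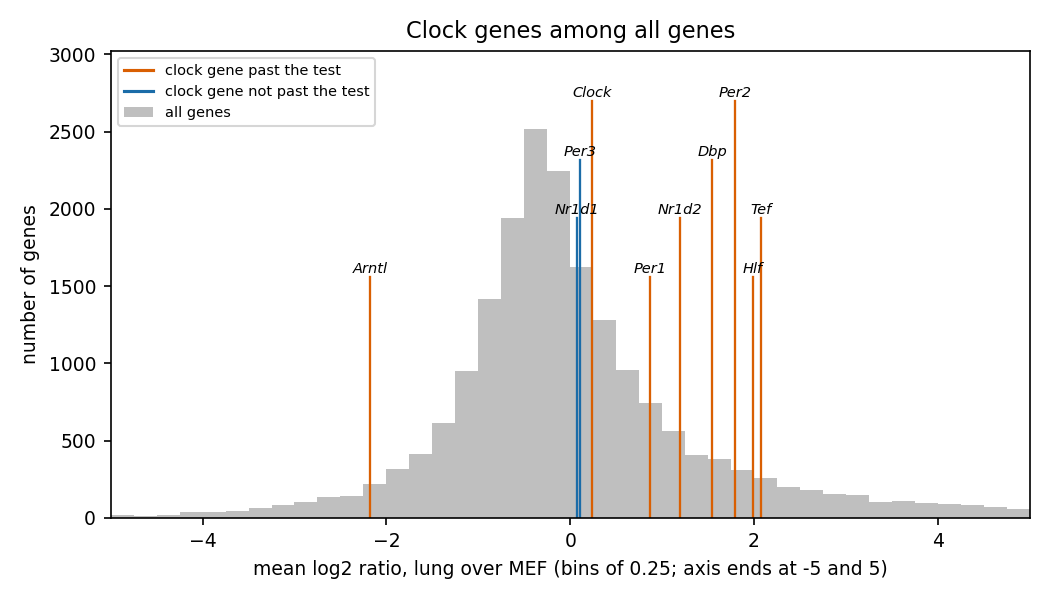
Number of genes (vertical axis) by mean log2 ratio of lung over MEF in bins of 0.25 (grey), with a vertical line at each clock gene, orange where it passed limma's test and blue where it did not; line heights carry no value. Per3 (0.11) and Nr1d1 (0.07) lie near the bulk of all genes, Arntl (-2.18) in the left flank, and the genes from Per1 (0.87) to Tef (2.07) in the right flank.

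The activators differed from each other. Arntl, the partner without which the loop stops in mice, had log2 ratios of -2.21 on lung replicate 1 and -2.15 on lung replicate 2. Both arrays thus had it well below 0, at a mean of -2.18 ± 0.04 (SD, n = 2), which is 4.53-fold lower in lung (95% interval of the mean -2.32 to -2.04, adjusted p = 0.00168 by limma). Arntl was measured by 1 probe. Clock, which encodes its partner with histone acetyltransferase activity, had log2 ratios of 0.25 and 0.23, or 1.18-fold higher in lung (mean 0.24 ± 0.01, SD, n = 2, adjusted p = 0.0187 by limma). This small ratio lay inside the receptor range, and its 4 probes did not all show it. Probes 3 and 4 averaged 0.45 and 0.48 and passed the test, whereas probes 1 and 2 averaged -0.04 and 0.07 and did not.

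The region at the start of Arntl is shown because REV-ERB proteins act on Arntl through RRE sequence there. It is the RefSeq window for the downstream of the 2 starts listed, 250 bases before to 50 bases after, in the build GRCm38.p6, read 5′ to 3′ along the gene. The capitals mark the match to the RRE, searched by its exact core letters TAGGTCA on both strands. Elements with other letters would not be marked.
Arntl, chr7:113207261-113207560, plus strand: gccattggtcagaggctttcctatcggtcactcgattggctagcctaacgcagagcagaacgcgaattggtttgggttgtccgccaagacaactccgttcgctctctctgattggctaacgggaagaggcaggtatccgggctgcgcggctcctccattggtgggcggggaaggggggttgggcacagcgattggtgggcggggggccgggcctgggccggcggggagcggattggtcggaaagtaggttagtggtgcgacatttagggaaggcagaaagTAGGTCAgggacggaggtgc
The match begins 30 bases downstream of the start. Among 32851 such windows of all genes, 2.61% held this motif. The match describes the letters only, and no binding was measured.

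The Per genes, which encode the period proteins of the repressing limb, ranged over the scale. Per1, a period gene induced by light and by glucocorticoids, had log2 ratios of 0.86 and 0.87 on lung replicates 1 and 2. Both lay inside the receptor range and just under 2-fold, with a mean of 0.87 ± 0.01 (SD, n = 2), 1.83-fold higher in lung (adjusted p = 0.00275 by limma). Per2, the PER protein whose loss weakens the rhythm in mice, had log2 ratios of 1.79 and 1.80, a mean of 1.80 ± 0.01 (SD, n = 2) and 3.48-fold higher in lung (adjusted p = 0.00171 by limma). That mean joins probes that disagree. Probe 2 of Per2 read 3.71 on lung replicate 1 and 3.68 on lung replicate 2, or 13.0-fold higher in lung, whereas probe 1 read -0.13 and -0.08 and did not pass (adjusted p = 0.110 by limma over probes). The probes lay 3.80 apart, a range that only 2.78% of the 5405 genes with as many probes reached. Both probes are annotated to the same RefSeq transcript, so the direction of Per2 rests on 1 of its probes. Per3, the least essential period gene in mice, had log2 ratios of 0.15 and 0.07. With a mean of 0.11 ± 0.06 (SD, n = 2) and a 95% interval of -0.05 to 0.27, it did not pass (adjusted p = 0.124 by limma).

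Start regions of Per1 and Per3 are set side by side because they carry different clock elements. Capitals mark the E-box CACGTG in Per1 and the D-box TTANGTAA in Per3, both searched on both strands in RefSeq windows of GRCm38.p6, with the upstream of the 2 starts listed used for Per1.
Per1, chr11:69098699-69098998, plus strand: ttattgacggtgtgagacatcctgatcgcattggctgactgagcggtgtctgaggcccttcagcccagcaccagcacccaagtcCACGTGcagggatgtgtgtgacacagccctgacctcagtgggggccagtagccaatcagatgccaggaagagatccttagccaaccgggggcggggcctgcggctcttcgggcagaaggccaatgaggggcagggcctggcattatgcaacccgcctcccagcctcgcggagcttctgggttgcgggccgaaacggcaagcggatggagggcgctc
Per3, chr4:151044616-151044915, minus strand: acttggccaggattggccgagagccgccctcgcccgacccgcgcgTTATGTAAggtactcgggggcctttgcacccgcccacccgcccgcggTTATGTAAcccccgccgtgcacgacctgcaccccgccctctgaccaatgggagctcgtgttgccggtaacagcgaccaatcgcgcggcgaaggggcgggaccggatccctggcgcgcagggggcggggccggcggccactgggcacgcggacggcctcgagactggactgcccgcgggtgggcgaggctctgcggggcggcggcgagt
The E-box of Per1 begins 166 bases upstream of the start, and 7.15% of all windows held one. Per3 held 2 D-boxes, 205 and 158 bases upstream, and 2.32% of all windows held at least 1. The window of the other start listed for Per1 held none of the motifs searched.

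The REV-ERB genes, whose products repress Arntl, were not alike. Nr1d2, which encodes REV-ERB beta, had log2 ratios of 1.26 and 1.14 on lung replicates 1 and 2. It was 2.29-fold higher in lung at a mean of 1.20 ± 0.09 (SD, n = 2, adjusted p = 0.00339 by limma) and lay above the receptor range on lung replicate 1 only. Nr1d1, which encodes REV-ERB alpha, had log2 ratios of 0.05 and 0.10, with a mean of 0.07 ± 0.03 (SD, n = 2, 95% interval -0.06 to 0.21, adjusted p = 0.163 by limma). The value near 0 came from probes of opposite sign. Probe 3 of Nr1d1 read 0.98 and 0.94 and was called higher, while probe 1 read -0.40 and -0.38 and probe 2 read -0.42 and -0.28 and both were called lower. With the median of the probes in place of the mean, Nr1d1 was called lower at -0.34 (adjusted p = 0.0255 by limma), so no direction can be given for it. Its probes were 1.35 apart, and 54.7% of the 2077 genes with 3 probes had a range as large. In the Nr1d1 window, at chr11:98775328-98775627 on the minus strand, the variant E-box CACGTT was found 28 bases upstream of the start, and 4.69% of all windows held it. Nr1d2 had no match to any of the 5 motifs searched, the fifth being the cAMP response element TGACGTCA.

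The 3 PAR bZIP genes all passed the test as higher in lung, against 32.6% of all genes, and lay above the receptor range on both arrays, against 14.6%. Without moderation Dbp was still called, whereas Tef and Hlf were not (adjusted p = 0.0753 and 0.0764 by limma). Dbp, the member with the strongest daily swing in mouse liver, had log2 ratios of 1.56 on lung replicate 1 and 1.52 on lung replicate 2. Its mean was 1.54 ± 0.03 (SD, n = 2), 2.92-fold higher in lung, with 1 probe (adjusted p = 0.00186 by limma). Hlf, first known as the partner of a leukaemia fusion gene in humans, had log2 ratios of 2.11 and 1.87. It averaged 1.99 ± 0.17 (SD, n = 2), 3.97-fold higher in lung, also with 1 probe (adjusted p = 0.00350 by limma). Tef, named for its place in thyrotroph cells of the pituitary, had log2 ratios of 2.20 and 1.95, a mean of 2.07 ± 0.18 (SD, n = 2) and 4.21-fold higher in lung (adjusted p = 0.00339 by limma).

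The 4 probes of Tef all averaged above 0 but differed in size. Probe 1 averaged 0.23 and did not pass, probe 2 averaged 0.72, probe 3 averaged 2.92 and probe 4 averaged 4.43, or 21.5-fold higher in lung. Probe 4 is annotated to a cDNA clone and the other 3 to the RefSeq transcript. The range of 4.20 was reached by 5.42% of the 701 genes with 4 probes, and probe 4 also had the widest gap between arrays among the 19 probes, 4.67 against 4.18. The size of the Tef ratio thus depends on the probe. By single probes, 11 of the 19 were called higher, against 32.2% of all probes, and 3 were called lower, against 43.0%. At least 2-fold higher on both arrays were 6 of the 19, against 17.7% of all probes, and 1 was at least 2-fold lower, against 17.9%.

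**Figure D3:**
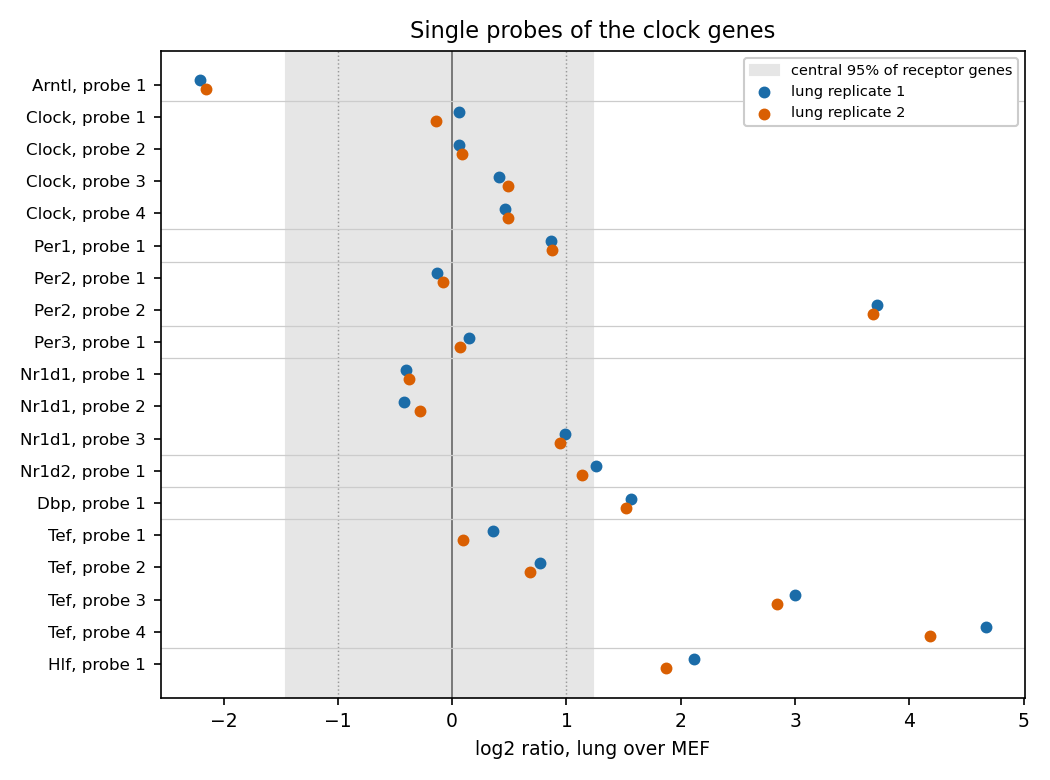
Log2 ratio of lung over MEF (horizontal axis) for each of the 19 probes of the clock genes on lung replicate 1 (blue) and lung replicate 2 (orange); the receptor range is grey and dotted lines mark 2-fold. Probes of Per2 (-0.10 and 3.70) and of Tef (0.23 to 4.43) lie far apart although both arrays gave close values for each probe.

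Both listed starts of Tef carry an E-box, and the downstream one is shown beside the window of Hlf. Capitals mark CACGTG in Tef and the cAMP response element TGACGTCA in Hlf, in RefSeq windows of GRCm38.p6 searched on both strands.
Tef, chr15:81811164-81811463, plus strand: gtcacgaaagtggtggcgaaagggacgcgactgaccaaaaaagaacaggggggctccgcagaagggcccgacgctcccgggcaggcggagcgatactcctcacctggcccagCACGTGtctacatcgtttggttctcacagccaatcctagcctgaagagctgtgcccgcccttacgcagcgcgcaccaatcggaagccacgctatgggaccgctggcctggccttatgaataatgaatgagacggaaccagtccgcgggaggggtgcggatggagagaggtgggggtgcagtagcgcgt
Hlf, chr11:90390868-90391167, minus strand: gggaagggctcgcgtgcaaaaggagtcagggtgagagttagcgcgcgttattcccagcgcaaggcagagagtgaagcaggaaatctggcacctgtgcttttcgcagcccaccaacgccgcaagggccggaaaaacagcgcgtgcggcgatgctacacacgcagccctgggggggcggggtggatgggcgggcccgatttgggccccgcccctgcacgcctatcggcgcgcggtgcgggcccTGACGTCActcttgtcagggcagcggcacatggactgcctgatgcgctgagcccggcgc
The E-box of Tef begins 138 bases upstream of the start shown and 127 bases upstream of the other. The element of Hlf begins 9 bases upstream, and 1.79% of all windows held that motif. Dbp and Clock had no match to the 5 motifs in their windows. Of the 10 clock genes, 9 had a window, and 6 of these had at least 1 match. Some had several windows, 14 in all, of which 7 held a match. No share of all genes or windows with any of the 5 motifs was drawn up. These counts therefore cannot be set against a background.

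Genes of the core loop other than these members went both ways. Of the 10 measured from a list of 11, 4 were higher, against 32.6% of all genes, 3 lower, against 43.6%, and 3 did not pass. Their median was -0.27 against -0.21 over all genes. With centring on the receptor genes 5 were higher and 2 lower, and the median was 0.15 against 0.20 over all genes, so the list stayed near the background on both scales. With that centring, 9119 of all 19532 genes were called higher and 5225 lower. Nfil3, a repressor that competes with the PAR bZIP proteins for D-boxes, had log2 ratios of -3.46 and -3.50 and was 11.1-fold lower in lung (adjusted p = 0.00161 by limma). Its ratio was thus opposite in direction to those of Dbp, Tef and Hlf, and its probes averaged -3.70 and -3.26. Ciart, which encodes a repressor of CLOCK and BMAL1, had log2 ratios of 2.24 and 2.28, or 4.79-fold higher in lung (adjusted p = 0.00165 by limma). Cry2, a cryptochrome that acts with the PER proteins, was 2.50-fold higher at 1.31 and 1.34, although its probes averaged 0.12 and 2.53. The other cryptochrome gene, Cry1, was called higher at 0.93, also with probes apart, at -0.41 and 2.28. Npas2, which can stand in for Clock, had a mean of -0.41 and an adjusted p of 0.0507 by limma. Arntl2, the paralog of Arntl, had log2 ratios of -1.48 and -0.55 and did not pass (adjusted p = 0.0887 by limma).

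Genes for enzymes and partners that modify the clock proteins were mostly lower in lung before centring. Of 17 measured from a list of 19, 12 were lower, against 43.6% of all genes, and 4 higher, against 32.6%, with a median of -0.63 against -0.21 over all genes. Before centring, 549 of the 1047 receptor genes were also called lower and 63 higher. With centring on the receptor genes 8 of the 17 were lower and 4 higher, against 5225 lower and 9119 higher of all 19532 genes. Lower calls were then no longer most of the list. The median was then -0.21 against 0.20 over all genes. At least 2-fold lower on both arrays were 3 of 17, against 15.4% of all genes. At least 2-fold higher were 2 of 17, against 17.1%, so by size the list was near the background. The lower ones were Tipin, a replication fork protein and partner of TIMELESS (-1.56 ± 0.01), and Btrc, a subunit of a ubiquitin ligase for PER proteins (-1.37 ± 0.04). Csnk2a1, a catalytic subunit of casein kinase 2, was the other (-1.09 ± 0.01, with SD and n = 2 for each gene). Tipin and Btrc had 1 probe each, and the probes of Csnk2a1 ran from -1.76 to -0.43. Prkaa2, a catalytic subunit of the AMP-activated kinase, was 3.59-fold higher, with 1 probe, and Sirt1, a deacetylase, 2.05-fold higher. Tipin lay below the receptor range and Prkaa2 above it on both arrays, while Btrc, Csnk2a1 and Sirt1 lay inside it. Among kinases that mark PER proteins for turnover, Csnk1d was called lower at -0.97 and Csnk1e did not pass at -0.33. Probes of Csnk1d ran from -1.77 to -0.21, and those of Csnk1e were of opposite sign, at -0.95 and 0.30.

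Rhythmic output genes and known targets of the PAR bZIP proteins were mostly higher in lung. Of 14 measured from a list of 15, 9 were higher, against 32.6% of all genes, and 4 lower, against 43.6%, with a median of 2.63 against -0.21 over all genes. With centring on the receptor genes 10 were higher and 1 lower, against 9119 higher and 5225 lower of all 19532 genes. The median was then 3.04 against 0.20 over all genes. All 9 were at least 2-fold higher on both arrays, against 17.1% of all genes. This list, like the others, was chosen with earlier results of these data known, so these shares describe it and test nothing. Cyp2a5 (8.13 ± 0.05) and Cyp2b10 (7.38 ± 0.18), cytochrome P450 genes known as targets in mouse liver, stood highest, followed by the flavin monooxygenase gene Fmo2 (4.80 ± 0.05; SD, n = 2 each). Cyp2a5 has a close paralog that a probe may not separate. Alas1, the first enzyme of haem synthesis, was at 3.46, the nuclear receptor genes Nr1i3 and Ppara were at 3.14 and 2.47, and the glucocorticoid-induced Tsc22d3 was at 2.79. Herpud1, an endoplasmic reticulum stress gene, was 3.49-fold higher. Abcb1a, a drug efflux pump, had log2 ratios of 3.70 on lung replicate 1 and 2.26 on lung replicate 2. Noct, a rhythmic phosphatase once known as a deadenylase, was 2.19-fold lower in lung at -1.13 ± 0.01 (SD, n = 2), inside the receptor range on both arrays. Several of these genes are also abundant in particular lung cell types, and the part of those cells in these ratios was not tested.

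**Figure D4:**
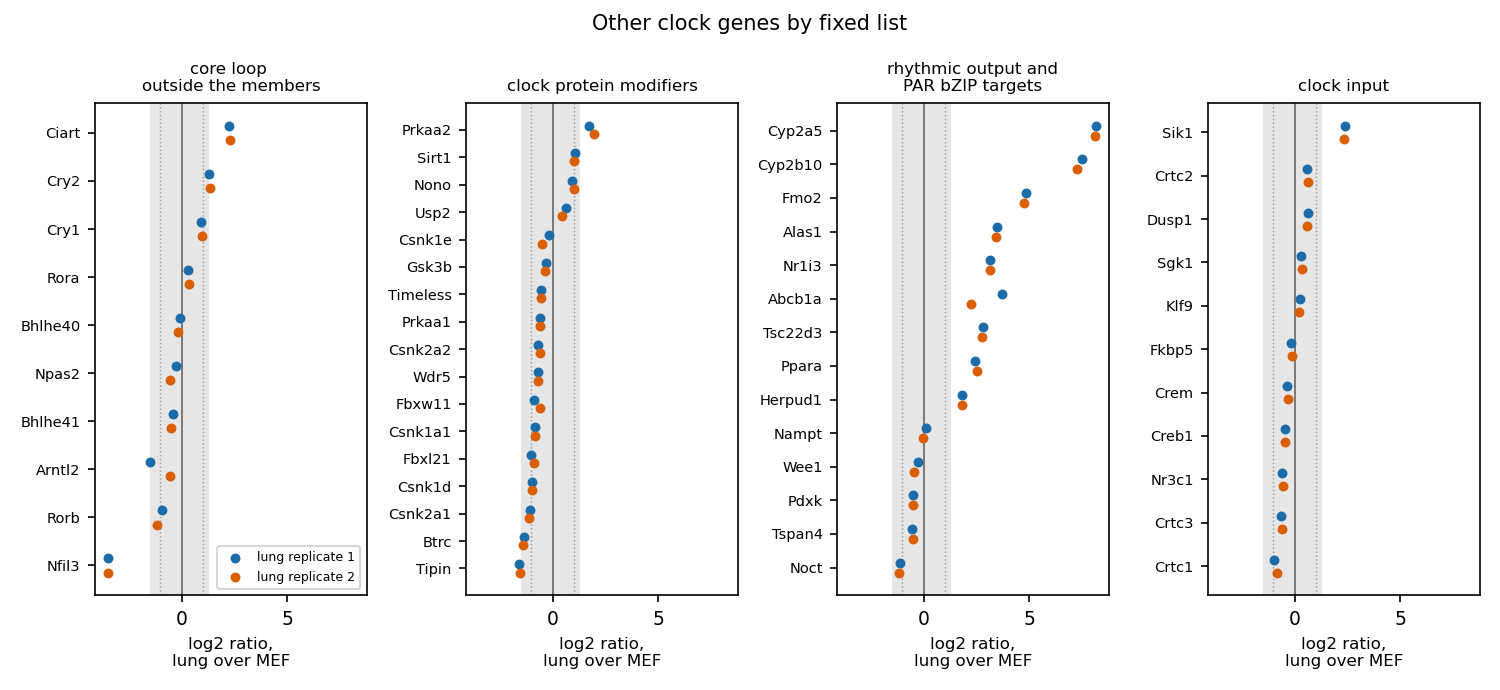
Log2 ratio of lung over MEF (horizontal axis) on lung replicate 1 (blue) and lung replicate 2 (orange) for the other clock genes in 4 lists, ordered by mean within each; grey is the receptor range and dotted lines mark 2-fold. Nfil3 lies lowest (-3.48) in the core loop panel, most modifiers lie left of 0, and 9 output genes lie beyond 2-fold on the right.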

How the data were processed

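The deposited table gives 1 log ratio for each probe on each array, computed by the authors and taken here as log2. It holds 41174 probes and no missing values. Agilent Feature Extraction is named per the submitters' processing notes. How background and dyes were corrected, and by which version, is not given in the sources used. Dyes were not swapped, so a dye effect stays in every ratio, and 2 arrays limit the precision. Channel intensities and flags were not used here, so dim or saturated probes cannot be marked.

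Probes were named through the platform annotation (32664 with 1 symbol, 45 with several, 8465 with none), and symbols were checked by Entrez ID against RefSeq genes. Probes were averaged per gene. Gene means were fitted against 0 with limma 3.58.1 in R 4.3.3 (intercept only, eBayes, two-sided, Benjamini-Hochberg over 19532 genes). Moderation added 1.21 degrees of freedom to the 1 left per gene. MEF RNA was the reference channel, so spread between MEF cultures is left out. The fit was also run on data simulated from its own estimated variances, with 200 genes changed. Such data cannot test for dye effects or for technical replication. Members and lists were chosen with earlier results of these data known. The text names all members, and other clock genes that passed the test and were at least 2-fold apart on both arrays. Cry1, Npas2, Arntl2, Csnk1d and Csnk1e were added after their values were seen. Of 58 listed other clock genes, 52 were measured. Promoter windows came from RefSeq (GRCm38.p6).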

Additional observations from a re-analysis of the deposited data

How the results depend on the processing

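Without moderation 3 clock genes were called higher in lung (Per1, Per2 and Dbp), and against a 2-fold change with limma's treat 4 were (Per2, Dbp, Tef and Hlf), in place of 7. With each probe fitted on its own, 4 had all probes called higher (Per1, Nr1d2, Dbp and Hlf). Arntl was called lower under all of these, and the median of probes added Nr1d1, giving 2 lower. Single values turned sign for Nr1d1 with the median of probes (-0.34), for its probes 1 and 2 (-0.39 and -0.35), for probe 1 of Clock (-0.042) and for probe 1 of Per2 (-0.10). Centring on all genes or on the receptor genes gave 9 higher and 1 lower, with Per3 and Nr1d1 added. Of the 52 other clock genes, 22 were higher, against 32.6% of all genes, and 24 lower, against 43.6%. The counts were 11 and 10 without moderation, 12 and 3 against a 2-fold change, and 25 and 13 with receptor centring. With all probes of a gene called in 1 direction, they were 16 and 13. No share over all genes was drawn up without moderation, with treat or with all probes called. Under those settings the counts, also those of the clock genes, cannot be set against a background. Over all genes 42.8% of calls were higher, 51.3% with median centring and 63.6% with receptor centring. Apart from moderation, treat and the 2 centrings, whose construction changes the error, the null or the zero point, the cause of these changes was not tested. Leaving out either array left 6 clock genes 2-fold apart (range 6 to 6), with no test possible on 1 array. Read as natural logarithms, which enlarges every ratio, 7 were 2-fold apart. No share over all genes was drawn up for single arrays or for natural logarithms. These counts also cannot be set against a background. No paired analysis was possible because each array is already a ratio and there is 1 group. Signal over background was not used, so ratios near the receptor range may rest on dim probes.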

Other observations

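Of the genes through which glucocorticoids and cAMP reach the clock, 11 were measured from a list of 13. Of these, 5 were higher in lung, against 32.6% of all genes, 5 were lower, against 43.6%, and 1 did not pass, so the shares were near the background. Their median log2 ratio was -0.15, against -0.21 over all genes. With centring on the receptor genes 6 were higher and 2 lower, while over all 19532 genes 9119 were higher and 5225 lower. Sik1, a kinase that restrains the CREB coactivators, had log2 ratios of 2.39 on lung replicate 1 and 2.32 on lung replicate 2, or 5.11-fold higher in lung (adjusted p = 0.00167 by limma). Its probes averaged 1.07 and 3.64, so both were above 0 and unequal in size. It was the only gene of this list at least 2-fold apart on both arrays.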
